A study of Melospiza melodia with 33 samples.

Results

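Blood of wild adult male song sparrows, Melospiza melodia, sampled after a second simulated territorial intrusion was compared with blood of males that had met no simulated intrusion. The second-trial group holds the 8 libraries that the labels title as a second trial, 4 after foreign song and 4 after local song, each from another bird. The baseline group holds the 10 libraries titled as baseline with no stimulus, from 10 other birds. These 18 libraries were taken from the 33 of the series by their titles alone, with the songs pooled. An intrusion was simulated by playing recorded song to a free-living male in Linesville, Pennsylvania. Foreign songs had been recorded in Millbrook, New York (stimuli 1, 4 and 5) and local songs in Linesville (stimuli 2, 3 and 6). Among the second trials, foreign song was stimulus 1 in 1 bird and stimulus 4 in 3, and local song was stimulus 2 in 2 birds and stimulus 6 in 2. Every second-trial bird had met the other kind of song in its first trial, so each had been challenged with both, and had been caught and bled before. The 7 further birds with a first-trial library have no second-trial library here, which the design text puts down to failed recaptures. Recapture, an earlier bleeding, a first playback and a second playback therefore all separate the 2 groups and cannot be told apart. The labels state neither the time between the trials nor that between playback and bleeding.

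Playback of a rival's song on a territory is a standard field challenge, to which territorial males usually respond by approach and song. Glucocorticoid and androgen hormones, catecholamines and immune cell traffic are the routes by which such a challenge is usually thought to reach the blood. Avian red cells and thrombocytes keep their nuclei, so whole-blood mRNA of a bird comes largely from red cells, with smaller parts from thrombocytes, heterophils (the avian counterpart of neutrophils), lymphocytes and monocytes. In such bulk samples, fewer cells of a type and less RNA per cell cannot be told apart.

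Total counts ran from 68.4 to 88.2 M in the second-trial libraries and from 74.2 to 104 M in the baseline libraries, and poly(A) RNA was sequenced without haemoglobin depletion. Total counts averaged 78.6 ± 7.60 M against 84.6 ± 8.16 M (SD, n = 8 and 10; two-sided exact permutation p = 0.127, adjusted p = 0.509 over 4 library measures). No difference was detected in the number of genes with a count (14612 ± 690 against 14660 ± 373) or in the share of counts held by the 3 most abundant genes (28.4% ± 9.22 against 31.0% ± 6.82), with exact permutation p of 0.856 and 0.510. Expression is given as CPM, the count of a gene scaled to library size, with scaling by the trimmed mean of M-values over all libraries. The tissue label was checked against markers of blood cells. Erythroid markers were high in every library, with SLC4A1, the red cell anion exchanger, at 1826 to 3890 CPM and TFRC, the transferrin receptor, at 1228 to 5866 CPM. TUBB1, the tubulin of thrombocytes, stood at 75.3 to 207 CPM, while most markers of lymphocytes and monocytes stood at a few CPM.

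Some libraries stood apart from the rest. Mean correlation of log2 CPM with the other 17 libraries was lowest in second-trial birds 8428 (0.901) and 8439 (0.904) and in baseline birds 8450 (0.903) and 8448 (0.927), and at least 0.939 in the other 14. The normalization factor of second-trial bird 8439 was 1.92 and that of baseline bird 8450 was 1.30, against 0.843 to 1.10 in the other 16. Likeness within birds was measured on deviations of log2 CPM from the mean of the libraries of the same trial and song. By that measure the second-trial library labelled 8439 did not resemble the first-trial library of that label (r = −0.04 across genes). In the other 7 birds r was 0.320 to 0.616. The highest r of this second-trial library with the first-trial library of another recaptured bird was 0.103. Whether a label is wrong, or which of these 2 libraries is unlike, was not tested. In the comparison with baseline, the main values that the second-trial library labelled 8439 moves are given without it too. The sample description has 1 wording in 6 second-trial libraries and 1 baseline library and another in 2 and 9, and the labels do not say what it stands for.

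The clearest difference was in ENTPD1, an enzyme on the cell surface that breaks down extracellular ATP and ADP. ENTPD1 was higher in second-trial blood than in any baseline library. Its level was 5.44, 10.5 and 13.8 CPM (lowest, median and highest of 8 second-trial birds) against 1.77, 3.43 and 5.19 CPM (10 baseline birds). All second-trial birds stood above all baseline birds, with means of 10.4 ± 3.08 and 3.38 ± 1.00 CPM (SD). The log2 fold change was 1.62 ± 0.23, a 3.08-fold difference, where the error is a standard error derived from edgeR's quasi-likelihood test (adjusted p = 0.00466). After foreign song the 4 birds stood at 5.44, 9.21, 13.01 and 13.7 CPM and after local song at 7.38, 9.43, 11.6 and 13.8 CPM.

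MN1, a transcriptional co-regulator known from human myeloid leukaemia and meningioma, was the only other gene that passed the test. MN1 was higher as well, at 4.17, 7.82 and 13.6 CPM against 1.58, 2.62 and 6.43 CPM. The ranges overlapped through baseline bird 8450 alone, which held 6.43 CPM while the other 9 baseline birds were at or below 3.01 CPM, and 7 of the 8 second-trial birds stood above it. The log2 fold change was 1.55 ± 0.26 (edgeR adjusted p = 0.0263).

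**Figure D1:**
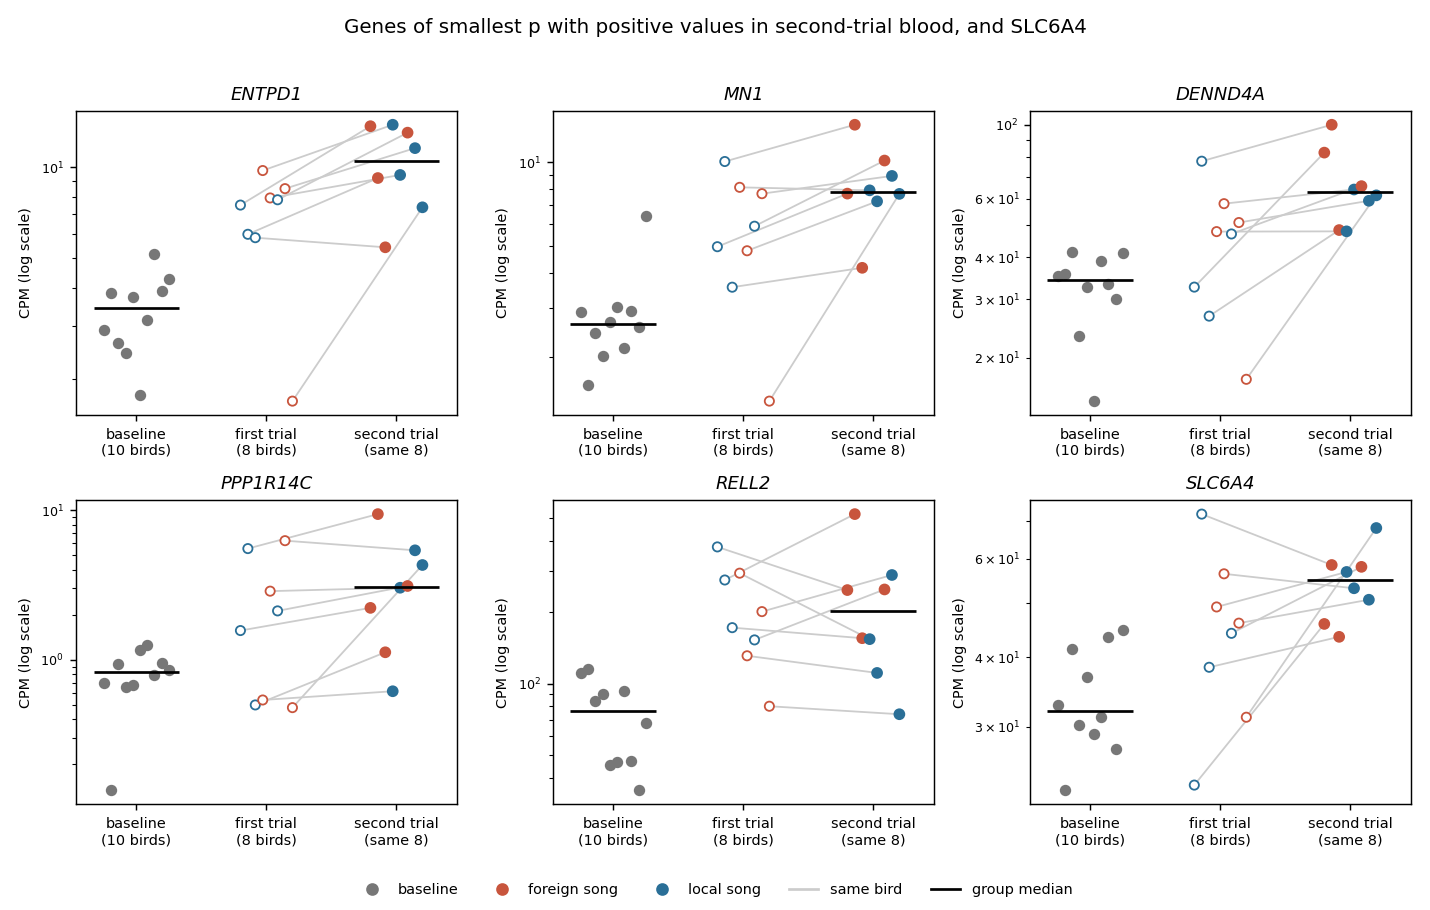
CPM on a log scale of ENTPD1, MN1, DENND4A, PPP1R14C, RELL2 and SLC6A4 in 10 baseline birds, in the first-trial libraries of the 8 recaptured birds (open points) and in their second-trial libraries (filled points). Colours give the song, grey lines join the libraries of 1 bird and black bars are group medians. ENTPD1 and DENND4A ranges do not overlap between second trial and baseline.

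Of 11915 genes tested, ENTPD1 and MN1 were the 2 that passed an adjusted p of 0.05 (0.0168% of the genes tested), both higher, and 0 genes passed as lower. limma-voom also called 2, and DESeq2 called 38, 29 higher and 9 lower. Among the genes described here, DESeq2 called ENTPD1, MN1, DENND4A, PPP1R14C, RELL2, SNRPA, SLC6A4, ULK2, TRIO, CDC20 and LOC134432163 as higher. It called LIPA, SOCS1 and DUSP15 as lower. At an unadjusted p under 0.05 edgeR gave 992 genes (8.33%), 558 higher (4.68%) and 434 lower (3.64%), where chance gives 596. Over all genes 46.5% had a positive and 53.5% a negative log2 fold change, with a median of −0.03. Without the library labelled 8439, 4 genes passed: ENTPD1, MN1, RELL2 and LOC134432163.

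The ENTPD1 call held in all 18 fits with 1 library left out (edgeR adjusted p 0.00111 to 0.0194, log2 fold change 1.56 to 1.75). MN1 lost its call in 12 of the 18 fits, those without second-trial birds 8422, 8426, 8430 or 8436 or without baseline birds 8435, 8438, 8442, 8443, 8444, 8447, 8448 or 8449. Its log2 fold change in the 18 fits was 1.42 to 1.79 and its adjusted p reached 0.0983. With the wording of the sample description as a term, ENTPD1 stood at 1.60 and MN1 at 1.53, and neither passed (adjusted p = 0.194 for each). Against baseline, the 4 foreign song birds alone gave 1.62 for ENTPD1 (adjusted p = 0.0586) and 1.65 for MN1 (0.203), and the 4 local song birds gave 1.67 (0.0313) and 1.496 (0.239).

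**Figure D2:**
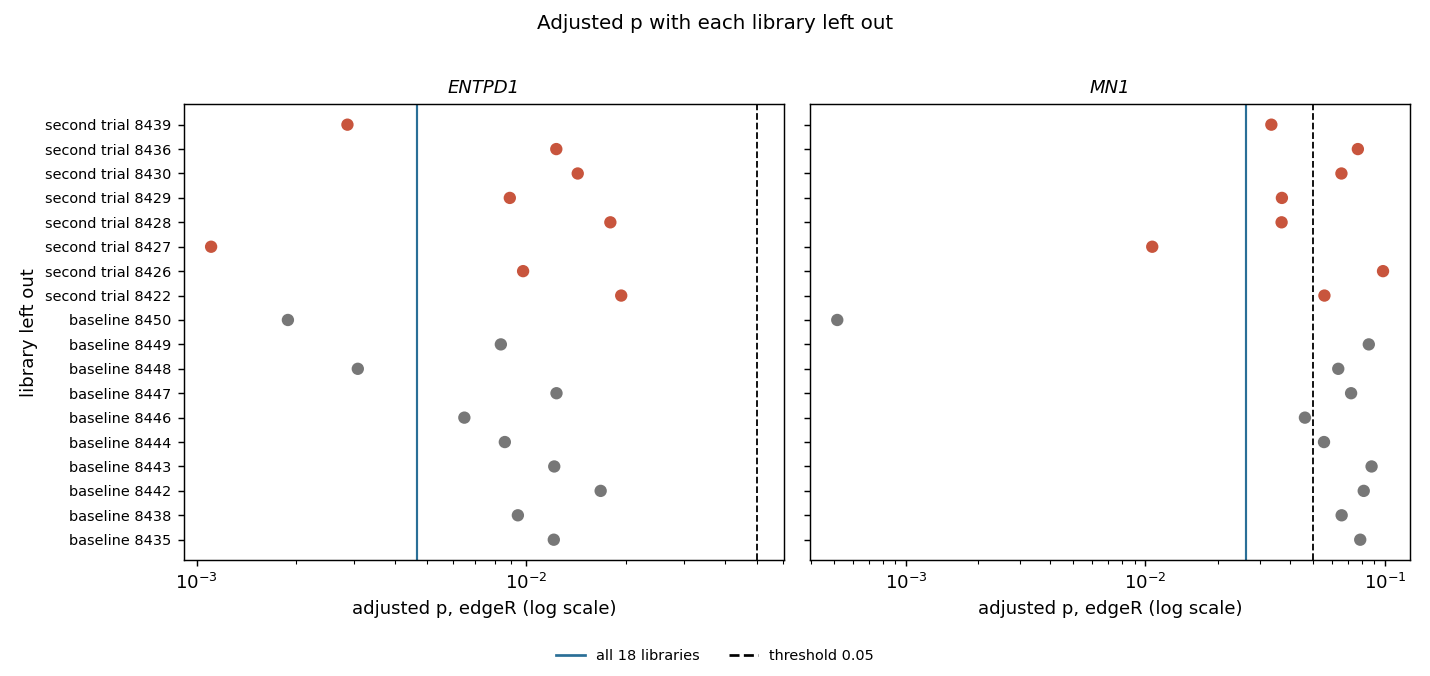
Adjusted p of ENTPD1 and MN1 in edgeR (log scale) with each of the 18 libraries left out in turn; red points leave out a second-trial and grey points a baseline library. The blue line is the value with all 18 libraries and the dashed line the threshold of 0.05. All 18 ENTPD1 points lie below the threshold, and 12 MN1 points lie above it.

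Beyond ENTPD1, CPM ranges did not overlap for 2 of the other genes tested, DENND4A and SNRPA, with the second trial higher in each; in all 3 genes (0.0252% of those tested) every second-trial library stood above every baseline library, and no gene showed the reverse. DENND4A, an exchange factor for Rab GTPases, stood at 47.9, 62.7 and 100.1 CPM against 14.8, 34.3 and 41.6 CPM (log2 fold change 1.01 ± 0.19), and its edgeR adjusted p of 0.080 missed the threshold. It passed in 2 of 18 fits with 1 library left out, those without second-trial bird 8427 (0.0296) or baseline bird 8446 (0.0455). Without second-trial bird 8426 its edgeR adjusted p was 0.334, and its limma-voom adjusted p was 0.128. Its span overlaps that of LOC134425388, which stood at 2.24 against 1.72 CPM (medians). SNRPA, a protein of the spliceosome that was named after its values were seen, ran from 7.03 to 12.3 CPM against 3.34 to 6.59 CPM (0.73 ± 0.20, adjusted p = 0.423).

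PPP1R14C, an inhibitor of a protein phosphatase, stood at 0.616, 3.07 and 9.39 CPM against 0.134, 0.826 and 1.26 CPM (log2 fold change 2.16 ± 0.42, edgeR adjusted p = 0.0913). Of the second-trial birds, 6 stood above all baseline birds, and bird 8428 with 0.616 CPM stood below the baseline median. PPP1R14C passed in 2 of 18 fits with 1 library left out, those without second-trial bird 8427 (adjusted p = 0.0371) or 8428 (0.0362). Without second-trial bird 8426 its edgeR adjusted p was 0.334, and its limma-voom adjusted p was 0.391. RELL2, a membrane protein related to a TNF receptor, stood at 74.1, 202 and 521 CPM against 35.3, 76.3 and 115 CPM (1.61 ± 0.32, adjusted p = 0.0913). The low value of 74.1 CPM is that of bird 8439, and RELL2 passed without it (1.76, adjusted p = 0.0336) and without second-trial bird 8429 (0.0432). RELL2 did not pass in the other 16 fits with 1 library left out. Without second-trial bird 8426 its edgeR adjusted p was 0.334, and its limma-voom adjusted p was 0.191. Bird 8426 held the highest PPP1R14C and RELL2 levels.

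Further genes had positive values and did not pass in edgeR with all 18 libraries, though DESeq2 called SLC6A4 (adjusted p = 0.0138), TRIO (0.00322), LOC134432163 (9.39e-05) and ULK2 (0.0487). SLC6A4, the serotonin transporter, which fills platelets with serotonin in mammals, stood at 43.5, 55.0 and 68.1 CPM against 23.1, 32.0 and 44.8 CPM. Of the second-trial birds, 7 stood above all baseline birds (log2 fold change 0.67 ± 0.15, edgeR adjusted p = 0.178). ULK2, a kinase that starts autophagy, stood at 1.83, 3.66 and 5.22 CPM against 1.18, 1.59 and 2.92 CPM (1.00 ± 0.26, adjusted p = 0.373), and its relative ULK1 at 203, 298 and 582 CPM against 153, 202 and 285 CPM (0.57 ± 0.19, adjusted p = 0.482). TRIO, a guanine nucleotide exchange factor, and LOC134432163, which has no name in the RefSeq table, were named after their values were seen. TRIO stood at 1.05, 8.63 and 17.7 CPM against 1.47, 2.21 and 3.19 CPM (1.90 ± 0.41, adjusted p = 0.178) and passed without second-trial bird 8427 (0.0296). TRIO did not pass in the other 17 fits with 1 library left out. Without second-trial bird 8426 its edgeR adjusted p was 0.456, and its limma-voom adjusted p was 0.508. LOC134432163 stood at 0.720, 2.32 and 10.4 CPM against 0.118, 0.645 and 1.04 CPM (2.61 ± 0.49, adjusted p = 0.080). It passed in 3 of 18 fits with 1 library left out, those without second-trial bird 8427 (0.0304), 8429 (0.0372) or 8439 (0.0482). Without second-trial bird 8426 its edgeR adjusted p was 0.334, and its limma-voom adjusted p was 0.321.

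No gene passed as lower, and the 5 of smallest p overlapped between the groups. LIPA, the acid lipase of lysosomes, stood at 23.4, 33.5 and 66.4 CPM in the second trial against 28.7, 71.4 and 109.6 CPM at baseline (log2 fold change −1.01 ± 0.26, edgeR adjusted p = 0.373). All 8 second-trial birds were below the baseline median of LIPA, and 2 were below its lowest baseline bird. SOCS1, which restrains cytokine receptors, stood at 4.00, 5.73 and 12.4 CPM against 7.32, 11.96 and 24.4 CPM (−1.01 ± 0.27, adjusted p = 0.387), with 6 second-trial birds below all baseline birds and bird 8428 with 12.4 CPM above the baseline median. MLF2, of the myeloid leukaemia factor family, stood at 6.23, 13.5 and 16.7 CPM against 12.7, 20.3 and 30.2 CPM (−0.74 ± 0.21, adjusted p = 0.423). DUSP15, a dual-specificity phosphatase, stood at 1.23, 4.33 and 6.47 CPM against 3.44, 10.2 and 22.7 CPM (−1.50 ± 0.42, adjusted p = 0.423). The baseline values of DUSP15 separated into a lower group of 5 at 3.44 to 5.55 CPM and an upper group of 5 at 14.8 to 22.7 CPM, and the second-trial birds lay in or below the range of the lower group except bird 8426 with 6.47 CPM. STK38, a kinase related to the Hippo pathway, stood at 71.7, 125 and 156 CPM against 115, 177 and 347 CPM (−0.76 ± 0.21, adjusted p = 0.423). DESeq2 called LIPA, SOCS1 and DUSP15 at an adjusted p of 0.0487 each.

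**Figure D3:**
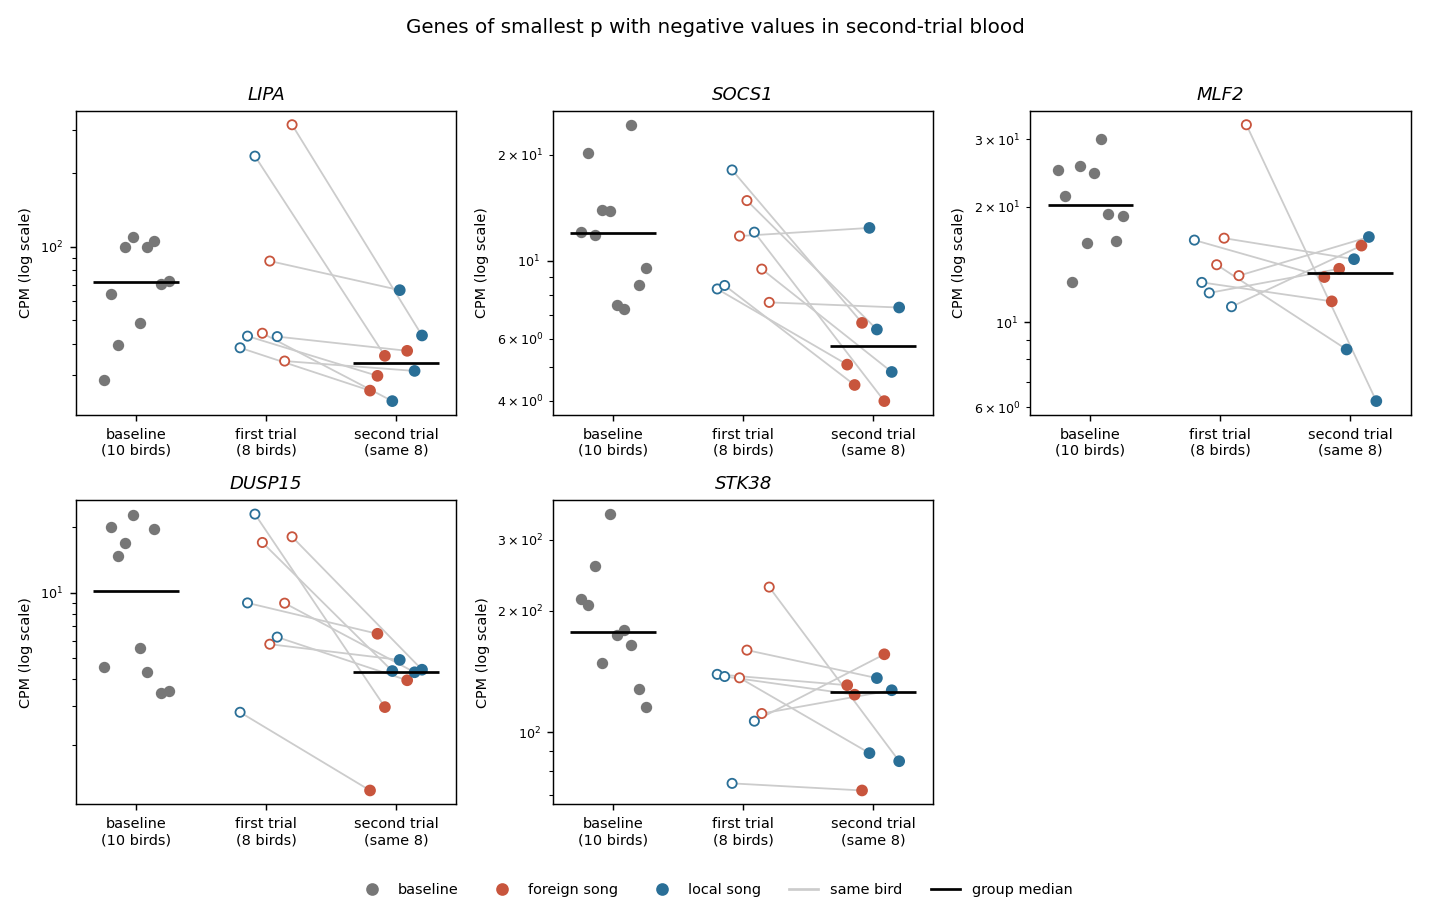
CPM on a log scale of LIPA, SOCS1, MLF2, DUSP15 and STK38 in baseline, first-trial (open points) and second-trial libraries, with colours and lines for song and bird and black bars for medians. In LIPA, MLF2, DUSP15 and STK38 all second-trial points lie below the baseline median, and in each of the 5 genes the groups overlap.

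Gene groups were described by 29 lists, and the counts below are counts of values, not of genes that passed. The lists and their members were chosen with earlier results of these data known. Shares of a list set beside those of all genes are therefore descriptions, and enrichment was not tested. In 1 list, that of purine nucleotide breakdown and purine receptors, a member passed over all genes, and that member was ENTPD1. The other 22 tested members of this list had no p under 0.05; the list's median was 0.03.

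Glucocorticoid receptors and target genes had positive values in 13 of 21 members with a median log2 fold change of 0.20, against −0.03 over all genes tested. Without the library labelled 8439, 11 were positive and 10 negative with a median of 0.17. With other libraries left out the median ran from 0.13 (without second-trial bird 8426) to 0.30 (without baseline bird 8450). Of these 21, 4 had an unadjusted p under 0.05 with positive values (19.0%, against 4.68% of all genes for positive values), and none passed the adjusted threshold. KLF9, a transcription factor that corticosteroids induce in many vertebrate tissues, stood at 9.78, 29.8 and 52.0 CPM against 10.7, 16.8 and 26.7 CPM (0.77 ± 0.25, edgeR adjusted p = 0.480). In KLF9, 4 second-trial birds stood above all baseline birds and 1, bird 8439, stood below them all. ZBTB16, a zinc finger factor and glucocorticoid target in mammals, stood at 0.311, 0.699 and 1.18 CPM against 0, 0.252 and 0.756 CPM (1.35 ± 0.48, adjusted p = 0.499), with all 8 second-trial birds above the baseline median. SGK1, a kinase induced by glucocorticoids, stood at 161, 372 and 486 CPM against 163, 203 and 414 CPM (0.59 ± 0.23, adjusted p = 0.546). TSC22D3, which encodes a glucocorticoid-induced leucine zipper protein and was named after its values were seen, stood at 30.7, 135 and 180 CPM against 66.7, 75.1 and 110 CPM (0.49 ± 0.23, adjusted p = 0.600). The low values of KLF9, SGK1 and TSC22D3 are all those of bird 8439. Without it the 3 genes stood at 0.91 (adjusted p = 0.267), 0.70 (0.417) and 0.64 (0.280).

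FKBP5, a chaperone of the glucocorticoid receptor, stood at 0.772, 1.00 and 1.94 CPM against 0.170, 0.662 and 2.37 CPM (log2 fold change 0.46 ± 0.39, edgeR adjusted p = 0.774), with all 8 second-trial birds above the baseline median, and at 0.78 without baseline bird 8448. NR3C1, the glucocorticoid receptor itself, stood at 56.8, 131 and 208 CPM against 73.1, 115 and 164 CPM (0.24 ± 0.24, adjusted p = 0.813), from 0.13 without second-trial bird 8426 to 0.36 without 8439. Both were named after their values were seen. CEBPB (−0.41), DDIT4 (−0.37) and DUSP1 (−0.29), which are induced by glucocorticoids in mammals, had negative values.

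**Figure D4:**
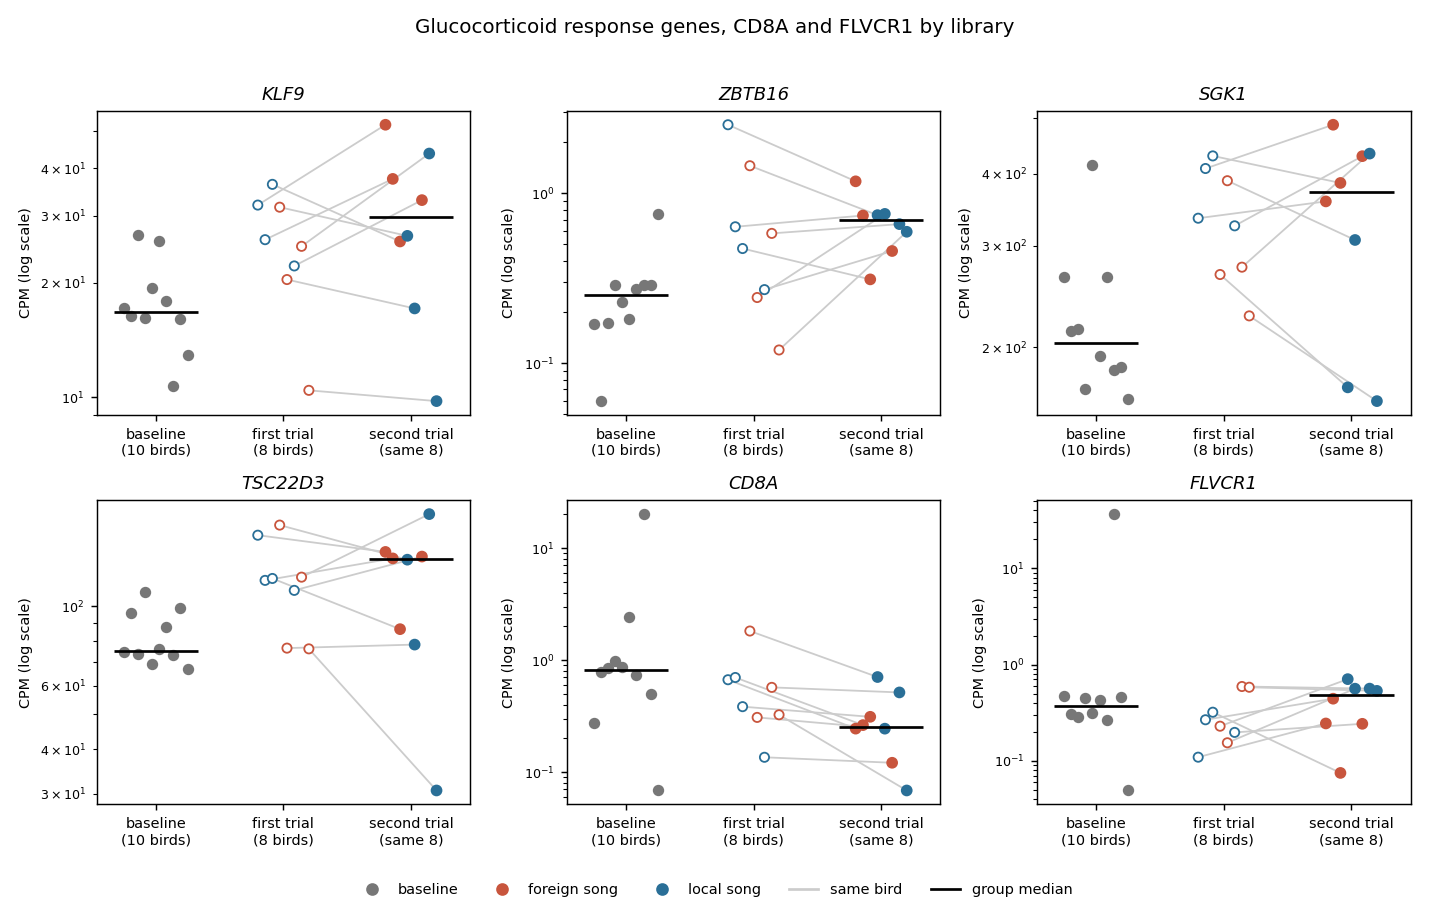
CPM on a log scale of the glucocorticoid response genes KLF9, ZBTB16, SGK1 and TSC22D3 and of CD8A and FLVCR1, in baseline, first-trial (open points) and second-trial libraries, with colours and lines as for the other genes and black bars for medians; a library at 0 is drawn near the bottom of its panel. In CD8A and FLVCR1 baseline bird 8448 stands far above all other libraries, at 20.1 and 36.6 CPM.

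Heat shock proteins and chaperones had 19 of 29 positive values and a median log2 fold change of 0.08 (0.19 without the library labelled 8439). STIP1, a co-chaperone between Hsp70 and Hsp90, stood at 34.99, 51.6 and 88.2 CPM against 29.0, 37.7 and 67.1 CPM (0.52 ± 0.19, edgeR adjusted p = 0.526). HSPA4L, a nucleotide exchange factor of Hsp70, stood at 39.1, 156 and 326 CPM against 41.5, 78.6 and 181 CPM (0.77 ± 0.32, adjusted p = 0.565). The list's median was 0.26 for foreign song birds against baseline and −0.13 for local song birds against baseline, a difference that was not tested for the list. Its summed level was 2473 and 3814 CPM in local song birds 8439 and 8428, whose libraries stood apart from the rest. The sum was 5457 and 6042 CPM in local song birds 8436 and 8429, and 6369 to 7401 CPM in the foreign song birds. Immediate early genes, which follow acute stimulation of cells, had 9 of 20 positive values and a median of −0.05, with FOSL2 at 0.45 ± 0.21, ATF3 at 1.13 ± 0.60 and MYC at −0.77 ± 0.42. MYC stood at −0.45 without baseline bird 8448, and the median of the list was 0.20 without baseline bird 8450.

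Among immune genes most values were negative. T cell markers had negative values in 13 of 18 members, with a median log2 fold change of −0.47, and 7 of the 18 had an unadjusted p under 0.05 with a negative value (3.64% of all genes did), none of them passing after adjustment. CD8A, a co-receptor chain of cytotoxic T cells, stood at 0.0685, 0.253 and 0.705 CPM against 0.0688, 0.815 and 20.1 CPM. All 8 second-trial birds were below the baseline median of CD8A, and baseline bird 8448 held 20.1 CPM while the next baseline bird held 2.43 CPM. Its log2 fold change was −3.13 ± 0.90 (edgeR adjusted p = 0.423) with bird 8448 and −1.43 (0.573) without it. CD8B, the partner chain, stood at −2.04 ± 0.75 and at −0.64 without bird 8448, and TBX21, a transcription factor of cytotoxic and helper lymphocytes, at −1.70 ± 0.60 and −0.74.

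Leaving out bird 8448 took the T cell list from 7 negative values at an unadjusted p under 0.05 to 1, and its median to −0.33, and the median was −0.29 without baseline bird 8447. Without the library labelled 8439 the median was −0.998, with 8 such genes. The summed level of the 18 T cell markers ran from 53.5 to 207 CPM in the second trial (median 105) and from 66.1 to 313 CPM at baseline (median 115), and no marker was at 0 in all libraries of a group. The highest sums were those of second-trial bird 8439 and baseline bird 8448. CD3E and ZAP70 were not analysed here.

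Interferon response genes had negative values in 19 of 24 members, with a median log2 fold change of −0.39 and 5 at an unadjusted p under 0.05, all negative (3.64% of all genes were lower at that level), or 3 without the library labelled 8439. Leaving out any 1 library gave medians of −0.48 to −0.29. USP18, which in mammals removes the ubiquitin-like protein ISG15, stood at 0.626, 2.18 and 8.78 CPM against 0.668, 6.98 and 21.4 CPM (−1.48 ± 0.61, edgeR adjusted p = 0.565). IRF1, a transcription factor that interferon induces, stood at 312, 571 and 708 CPM against 237, 878 and 2066 CPM (−0.75 ± 0.33, adjusted p = 0.589). The second-trial birds held a narrow range of IRF1 inside the wide range of the baseline birds. Its span overlaps that of LOC134424686, which stood at a median of 1.85 against 1.22 CPM. PARP9 (−0.69), IRF7 (−0.38) and RSAD2 (−0.88), an antiviral enzyme, had negative values, while HELZ2 (0.47), IFNAR1 (0.32) and STAT2 (0.31) had positive ones.

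Inflammatory genes of the NF-kB pathway had negative values in 19 of 29 members (median −0.13), with 5 negative values and 1 positive value at an unadjusted p under 0.05 (over all genes 3.64% and 4.68%). SOCS3, a cytokine-induced inhibitor, stood at −0.93 ± 0.38, NFKB1, a subunit of NF-kB, at −0.71, and TNIP1, which restrains NF-kB, at −0.55. IKBKG, the regulatory subunit of the kinase that activates NF-kB, stood on the other side, at 16.5, 21.1 and 39.0 CPM against 7.93, 15.6 and 21.1 CPM (0.74 ± 0.23, edgeR adjusted p = 0.464). Without baseline bird 8448 the median of this list was −0.01, and without the library labelled 8439 it was −0.24.

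Other blood cell markers gave smaller values. B cell markers had negative values in 14 of 18 members (median −0.20), with BLK, a B cell kinase, at −1.32 ± 0.57 and XBP1 at −0.46 ± 0.22. EBF1, a B cell transcription factor, went the other way, at 1.33 ± 0.66 and at 0.17 without the library labelled 8439. Median levels were higher in the second trial for PAX5 (2.22 against 1.17 CPM) and BLNK (3.86 against 2.22 CPM). They were lower for CD79A (3.01 against 3.37 CPM), CD79B (2.49 against 2.90 CPM) and BTK (5.26 against 5.78 CPM). Without baseline bird 8448 BLK stood at −0.74 and the B cell median at −0.04. Heterophil markers had negative values in 7 of 9 members (median −0.32, from −0.50 without the library labelled 8439 to −0.10 without baseline bird 8449). Their leukotriene enzyme ALOX5 stood at −1.23 ± 0.65 through baseline bird 8448, which held 19.2 CPM, and at 0.26 without it. Monocyte markers were split, 8 positive and 6 negative, with a median of 0.09 (−0.03 without the library labelled 8439). Thrombocyte markers had 13 of 17 positive values (median 0.19), with VWF, von Willebrand factor, at 0.95 ± 0.35. Without the library labelled 8439, which held the highest summed thrombocyte level (1754 CPM, against at most 1529 CPM in the other 17), 8 were positive and 9 negative, with a median of −0.03. Erythroid markers were split evenly, 8 and 8, with ANK1, the ankyrin of the red cell membrane, at 0.40 ± 0.19.

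With the library labelled 8439 included, genes of protein synthesis, protein breakdown and respiration had mostly small negative values. Of the 71 cytosolic ribosomal protein genes 67 had a negative value, with a median log2 fold change of −0.21, and none had an unadjusted p under 0.05. RPS12 stood at −0.46 ± 0.23. The summed level of the list was 7383 CPM in second-trial bird 8439 and at least 13835 CPM in the other 7, against 14505 to 33678 CPM at baseline. Without bird 8439, 55 of 71 were negative and the median was −0.08, against −0.04 over all genes tested. The list's median was −0.12 without baseline bird 8435. All 15 first-trial libraries against the same baseline gave positive values in 67 of 71, with a median of 0.20. Respiratory chain and ATP synthase genes were negative in 44 of 46 (median −0.20), and in 43 of 46 without bird 8439 (median −0.13). In that list NDUFB10, a subunit of complex I, stood at 5.53, 10.3 and 18.6 CPM against 10.9, 20.5 and 35.3 CPM, with all second-trial birds below the baseline median and 4 below all baseline birds (−0.92 ± 0.26, edgeR adjusted p = 0.423). ATP5MC3, of the ATP synthase ring, stood at −0.43 ± 0.17, and NDUFS4, of complex I, had one of the few positive values, 0.49 ± 0.20.

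Aminoacyl-tRNA synthetases, which charge tRNAs with amino acids, had negative values in 20 of 21 members (median −0.29, and −0.18 without baseline bird 8435). Without bird 8439, 18 of 21 were negative (median −0.20). AARS1 stood at 7.36, 11.3 and 19.8 CPM against 11.8, 18.5 and 28.1 CPM (−0.62 ± 0.22, edgeR adjusted p = 0.499), and KARS1 at −0.67 ± 0.25 (0.519). Proteasome genes were negative in 29 of 36 (median −0.21), and in 26 of 36 without bird 8439 (median −0.13). In that list PSMD2, a subunit of the regulatory particle, stood at 57.4, 114 and 130 CPM against 116, 153 and 205 CPM (−0.53 ± 0.17, adjusted p = 0.475). Genes of the integrated stress response were negative in 19 of 24 (median −0.19), and in 15 of 24 without bird 8439 (median −0.05). Translation initiation factors were negative in 21 of 34 members (median −0.10), but in 13 of 34 without bird 8439 (median 0.02). Among them EIF4G3, a scaffold of the cap-binding complex, stood at 136, 180 and 310 CPM against 57.0, 113 and 176 CPM (0.80 ± 0.22, adjusted p = 0.423), with all 8 second-trial birds above the baseline median.

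Genes of chromatin had mostly positive values, 35 of 47, with a median log2 fold change of 0.19 (0.21 without bird 8439). Of the 47, 7 had an unadjusted p under 0.05, all with positive values (14.9%, against 4.68% of all genes). Any single library left out gave medians of 0.15 to 0.28. The summed level of the list was 9524 CPM in bird 8426 and 8597 CPM in bird 8422, both after foreign song. In the other second-trial birds it was 4756 to 5765 CPM, inside the baseline range of 3822 to 6180 CPM. The list was not examined without both of these birds. DNMT3B, a DNA methyltransferase, stood at 2.47, 8.36 and 10.1 CPM against 2.23, 3.38 and 7.22 CPM (0.94 ± 0.27, edgeR adjusted p = 0.423), with 5 second-trial birds above all baseline birds. ARID1A, a subunit of the SWI/SNF remodeller, stood at 58.1, 80.6 and 117 CPM against 28.3, 50.9 and 76.0 CPM (0.69 ± 0.20, adjusted p = 0.423). KMT2C, a histone methyltransferase, stood at 516, 716 and 1695 CPM against 181, 386 and 791 CPM (0.98 ± 0.31, adjusted p = 0.468). It ran from 669 to 1695 CPM after foreign song and from 516 to 905 CPM after local song. In ARID1A and KMT2C all 8 second-trial birds stood above the baseline median.

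Red cell membrane and cytoskeleton genes had 19 of 28 positive values (median 0.18, and 0.29 without baseline bird 8444), with ATP2B4, a calcium pump, at 0.86 ± 0.38 and at 0.57 without the library labelled 8439. XK, a membrane protein of the red cell, stood at 0.0244, 0.141 and 0.373 CPM against 0.0996, 0.508 and 1.78 CPM (−1.97 ± 0.58, edgeR adjusted p = 0.423), and 4 second-trial birds were below all baseline birds. In haem synthesis and iron handling, 15 of 23 values were negative (median −0.06). FLVCR1, a haem exporter, had the lowest value of the list, −3.20 ± 1.2, which rested on baseline bird 8448 with 36.6 CPM, while the next baseline bird held 0.472 CPM. Without that bird FLVCR1 stood at 0.32.

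In the list of glycolysis and hypoxia genes, 17 of 27 values were negative (median −0.17), and 22 of 27 without the library labelled 8439 (median −0.21). PFKFB3, which makes the main activator of glycolysis, stood on the other side, at 292, 660 and 1076 CPM against 256, 375 and 575 CPM, with 5 second-trial birds above all baseline birds (log2 fold change 0.81 ± 0.22, edgeR adjusted p = 0.423). SLC16A1, a lactate carrier, stood at −0.84 ± 0.34 (−0.54 without baseline bird 8446) and LDHB, a lactate dehydrogenase subunit, at −0.97 ± 0.44 (−0.47 without baseline bird 8448). Antioxidant enzymes were negative in 20 of 30 (median −0.15, and −0.07 without the library labelled 8439), with CAT, catalase, at −1.02 ± 0.43 (−0.56 without baseline bird 8448) and GSS, of glutathione synthesis, at −0.56 ± 0.23. Autophagy genes were split, 17 positive and 21 negative (21 and 17 without the library labelled 8439), with FUNDC1, a mitophagy receptor, at −0.79 ± 0.31 beside the positive ULK1 and ULK2.

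The remaining lists had medians between −0.07 and 0.10, and without the library labelled 8439 between −0.02 and 0.11. Circadian clock genes had 9 of 21 positive values (median −0.01), with CIART at −0.71 ± 0.27. Proliferation genes had 14 of 26 (0.03), with PCNA, the DNA polymerase clamp, at −0.63 ± 0.26 (−0.35 without baseline bird 8450) and CENPE, a mitotic kinesin, at 1.17 ± 0.54. Sex steroid and catecholamine genes had 6 of 12 (0.10). The listed gene of smallest p was SLC6A4, which carries serotonin and is neither a sex steroid nor a catecholamine gene. Ubiquitin-conjugating enzymes had 15 of 27 (0.06), with BIRC6 at 0.51 ± 0.23, and mitochondrial carriers 15 of 36 (−0.07), with SLC25A12 at −0.50 ± 0.23.

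**Figure D5:**
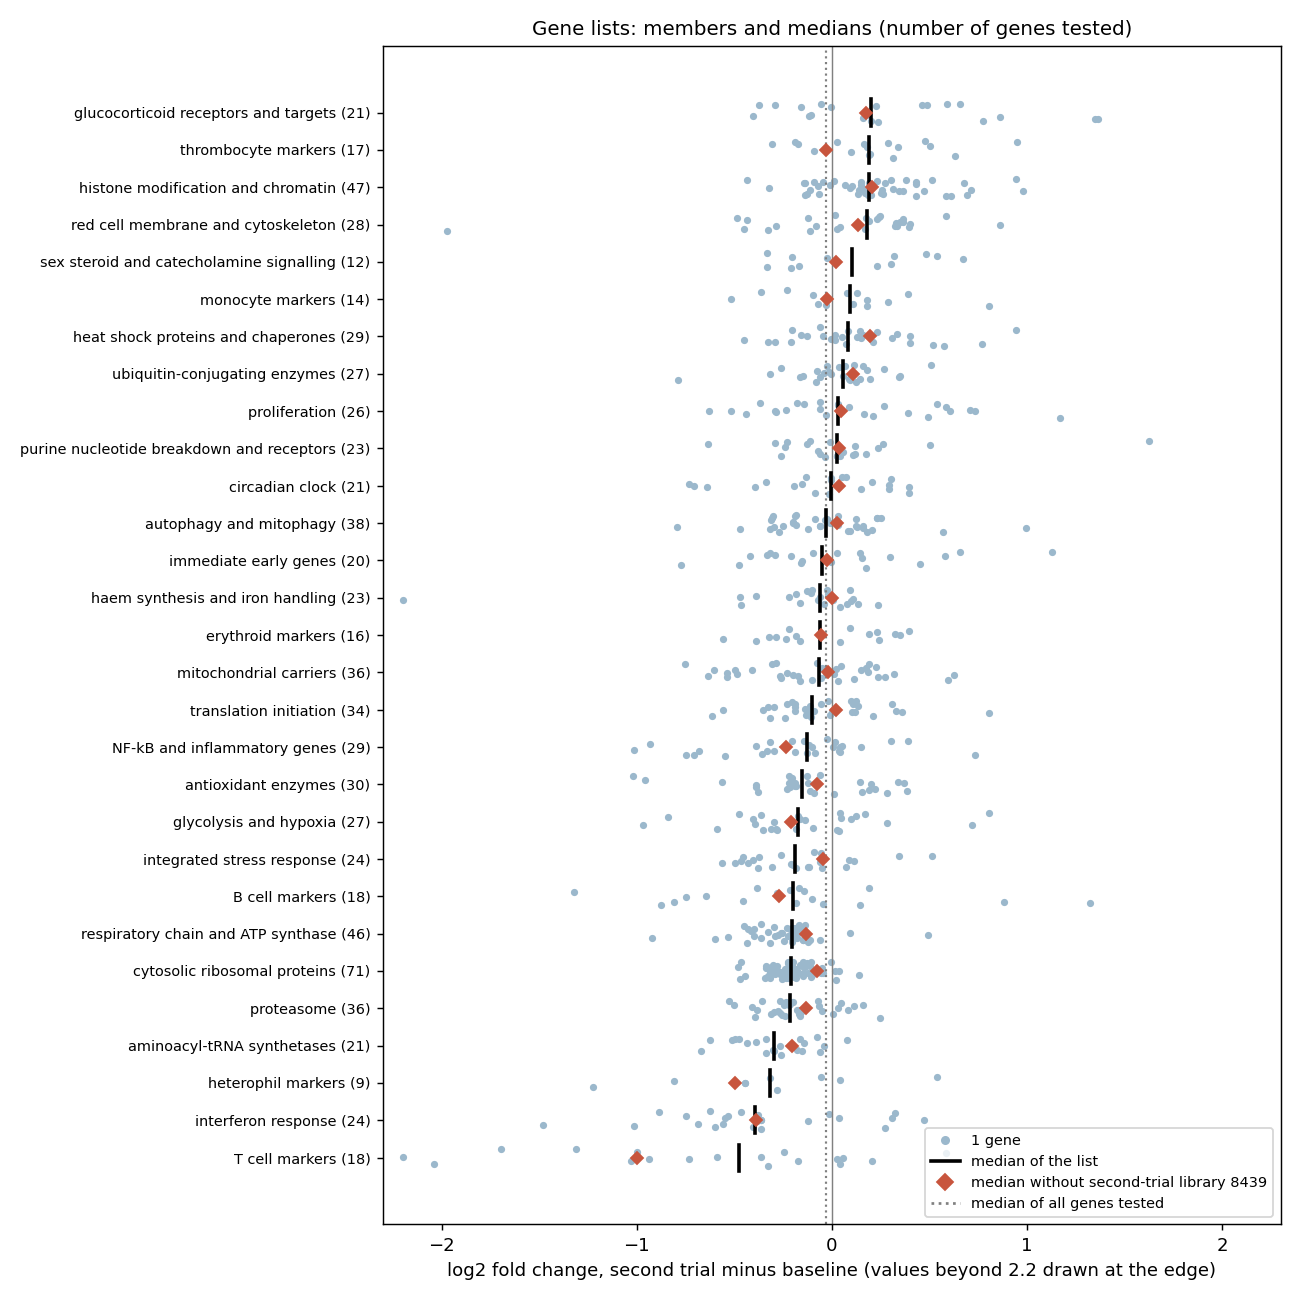
Log2 fold change of second trial minus baseline for the members of 29 gene lists (points; number of genes tested in brackets), with the median of each list (black bars), its median without the library labelled 8439 (red diamonds) and the median of all genes tested, −0.03 (dotted line). T cell markers have the lowest median, −0.47, and glucocorticoid receptors and targets the highest, 0.20; without the library labelled 8439 the highest is that of chromatin genes, 0.21.

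The songs pooled in the second-trial group were compared with each other to ask whether the pooling joined unlike samples. Of 12847 genes tested in a fit of foreign, local and baseline libraries, 0 passed (0%, with a lowest edgeR adjusted p of 0.401). At an unadjusted p under 0.05 edgeR gave 1332 genes (10.4%), where chance gives 642. After foreign song 584 (4.55% of genes tested) were higher and 748 (5.82%) lower at that level. Without the library labelled 8439, a local song bird, 0 passed and 769 had an unadjusted p under 0.05. DESeq2 called 43. For ENTPD1 the difference, foreign minus local, was −0.02 ± 0.34 and for MN1 it was 0.18 (log2). RELL2 stood at 0.91 (unadjusted p = 0.0515), at 156 to 521 CPM after foreign and 74.1 to 288 CPM after local song.

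The genes of smallest p in this contrast were PCMTD2 (log2 fold change 2.61), RBBP7, a histone-binding protein (1.82), and FOCAD (0.93) with positive values, and CCSAP (−1.62), NCL, nucleolin (−1.24), and LRMDA (−3.11) with negative values. DESeq2 called PCMTD2, RBBP7, FOCAD, CCSAP and LRMDA between songs, but not NCL. In LRMDA bird 8439 held 10.6 CPM, and the other 7 second-trial birds held at most 1.44 CPM. PCMTD2, NCL and FOCAD stood near 0 in the pooled comparison with baseline (log2 fold changes 0.06, 0.13 and 0.21).

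The second-trial libraries were also compared with the first-trial libraries of the same 8 birds, with bird as a block and song as a term, to ask whether the difference from baseline changed between trials. Of 11629 genes tested, 0 passed (0%; lowest edgeR adjusted p 0.633), with 666 at an unadjusted p under 0.05 (5.73%), 440 higher (3.78%) and 226 lower (1.94%) in the second trial. Without bird 8439, 0 passed and 515 had an unadjusted p under 0.05, 283 higher and 232 lower. Of 11992 genes tested between all 15 first-trial libraries and baseline, 1 passed as lower (0.00834%), DBT, which did not pass without bird 8439, and 720 had an unadjusted p under 0.05 (6.00%), 241 higher (2.01%) and 479 lower (3.99%). First and second trials share the same baseline libraries, so their differences from baseline are given side by side only. First-trial values against baseline come from all 15 first-trial birds, 7 of them without a second trial, and second-trial values from 8 birds. In the first-trial libraries of the 8 birds ENTPD1 stood at 1.69, 7.66 and 9.75 CPM, and 7 of the 8 were already above every baseline bird. The exception, at 1.69 CPM, was bird 8439, which held 7.38 CPM in its second library. ENTPD1 was higher in the second than in the first library of 7 of 8 birds (log2 fold change 0.68 ± 0.22, adjusted p = 0.633), and all 15 first-trial libraries against baseline gave 0.82 ± 0.23 (adjusted p = 0.653).

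MN1 was likewise higher in the second library of 7 of 8 birds (0.65 ± 0.25), and DENND4A in 8 of 8 (0.66 ± 0.21), without passing in edgeR. In bird 8439 MN1 went from 1.38 to 7.70 CPM and DENND4A from 17.2 to 61.5 CPM. Both of its first-trial values were the lowest of the 8 birds. RELL2 differed little between the trials (0.03 ± 0.20), and its first-trial value against baseline, 1.43 (edgeR adjusted p = 0.426), stood beside 1.61 in the second trial. PFKFB3 gave 0.76 in the first and 0.81 in the second trial against baseline, and STIP1 0.50 and 0.52.

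LIPA gave log2 fold changes of 0.05 in the first trial (15 birds) and −1.01 in the second trial (8 birds) against baseline. Its first-trial median was 43.7 CPM in the 8 recaptured birds and 19.4 CPM in the other 7. Its 15 first-trial libraries stood at 10.1, 42.9 and 314 CPM, with a median below the baseline median of 71.4 CPM and the highest value in bird 8439. The LIPA level was lower in the second than in the first library of 8 of 8 birds (−0.99 ± 0.32), and went from 314 to 43.4 CPM in bird 8439. DUSP15 gave −0.26 and −1.50 and was lower in the second library of 8 of 8 birds (−1.30 ± 0.29). SOCS1 gave −0.12 and −1.01 and was lower in 7 of 8 birds (−0.84 ± 0.19) and higher in 1. Bird 8439, among the 7, was nearly level at 7.62 and 7.37 CPM. FRMD4A, a scaffold protein of cell polarity, gave −0.28 and 1.21 and was higher in 7 of 8 (1.39 ± 0.34). ZFHX3 (1.15 ± 0.29), ZNF618 (0.73 ± 0.19) and IRF1 (−0.65 ± 0.17) were the other genes of smallest p between trials. None of these passed between trials in edgeR (adjusted p = 0.633 for each), while DESeq2 called DUSP15 (0.0217), SOCS1 (0.0458) and FRMD4A (0.0458) among its 6 calls. By list, interferon response genes had a lower fitted value in the second trial in 24 of 24 members (45.1% of all genes did). Of these, 12 had an unadjusted edgeR p under 0.05 (1.94% of all genes). Not every bird shared the fall. The summed level of the list was 3729 then 3804 CPM in bird 8422 and 4341 then 4529 CPM in bird 8426, and lower in the second library of the other birds. Cytosolic ribosomal protein genes had a lower fitted value in 71 of 71 (median −0.42). Their summed level went from 30461 to 7383 CPM in bird 8439, and was also lower in the second library of birds 8422, 8426, 8427, 8429 and 8430. It rose from 21570 to 24489 CPM in bird 8428 and from 26300 to 28401 CPM in bird 8436. Chromatin genes went the other way, higher in 34 of 47 (54.9% of all genes were), with 7 at that level (3.78% of all genes). The list counts and the fitted values of genes between trials include bird 8439. The list counts were not repeated without it, and the fitted values are given only with it.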

How the data were processed

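Whole blood of 25 birds gave 33 libraries, of which the 18 of the second-trial and baseline groups carry the main comparison. Per the labels' protocols, RNA was DNase-treated, enriched by poly(A), made into KAPA HyperPrep libraries and sequenced in paired ends on a NovaSeq X Plus. The submitters' processing notes name fastp and STAR; neither the tool versions nor the read counter, strand setting, build or annotation are stated there or in the labels. The deposited values are raw counts of reads per gene, 21141 genes in each library, of which 20961 matched a symbol in RefSeq's gene table (bMelMel2.pri). Of 107 named genes 104 were placed there and 19 overlap another gene, so that reads may be shared.

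Counts were tested with edgeR 4.0.16 in R 4.3.3 (filterByExpr with a minimum count of 10 and a minimum total of 15, trimmed mean of M-values scaling, robust quasi-likelihood F test, Benjamini-Hochberg adjustment over all genes tested, threshold 0.05). Adjusted p-values are edgeR's unless another tool is named, and standard errors are the log2 fold change divided by the root of F. Library measures were compared by two-sided exact permutation over 43758 assignments. DESeq2 1.42.0, limma 3.58.1 voom, other scalings, filters, covariates and omitted libraries were alternatives. The code was tested on simulated counts.

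Named genes are the 5 of smallest p in each direction among genes with a mean log2 CPM of 0 or more and no LOC number as symbol, the 3 of smallest p in each list, and the 3 of smallest p in each direction between songs and between trials. Other genes named were chosen after their values were seen. The members and lists were chosen with earlier results of these data known. Second and first trials were paired by the bird named in the labels. Deviations of the libraries of 1 bird from the means of their trial and song correlated at 0.320 to 0.616 in 7 birds and at −0.04 in bird 8439. The labels give 1 bird per replicate within a group. Some genes of the lists are counted but not reported here by name.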

Additional observations from a re-analysis of the deposited data

Results flagged for a closer look

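Among 222 groups of values examined, 32 held a library whose gap to its nearest neighbour was large against the range of the group, 15 on the high and 17 on the low side; chance gives such a library in about 1 in 20 groups. Bird 8439 accounted for 9 of them, bird 8448 for 6 and bird 8450 for 5.

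Among second-trial libraries, bird 8439 was far below the others in SPTB, spectrin (954 CPM, next 1524), XBP1 (72.7, next 151), IRF1 (312, next 487), PSMD2 (57.4, next 106), UBE2Q1 (155, next 252) and TSC22D3 (30.7, next 78.2). It was far above them in TBXAS1, thromboxane synthase (61.5 CPM, next 20.7), CDC20 (81.2, next 31.3) and LRMDA (10.6, next 1.44). Bird 8426 was low in BPGM (0.549 CPM, next 0.940) and RPL38 (12.9, next 25.7) and high in NCF4 (24.1, next 7.03). Bird 8422 was low in DUSP15 (1.23 CPM, next 2.98) and EIF2B1 (1.48, next 2.25), bird 8436 in DNMT3B (2.47, next 5.52) and bird 8428 in ATF3 (0, next 0.171).

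Among baseline libraries, bird 8448 was far above the others in CD8B (20.2 CPM, next 2.89), ALOX5 (19.2, next 2.04), FLVCR1 (36.6, next 0.472) and LDHB (3.34, next 0.790), below them in GSS (9.36, next 17.97), and had the highest total count (103.7 M, next 88.8 M). Bird 8450 was high in MN1 (6.43 CPM, next 3.01), CDC20 (63.7, next 18.3), LRMDA (2.31, next 0.731) and ZNF618 (20.9, next 6.99) and low in SLC25A16 (1.96, next 6.22). Bird 8438 was low in PPP1R14C (0.134 CPM, next 0.653) and ZBTB16 (0, next 0.170), and bird 8446 in ZFHX3 (0.134, next 0.495). Bird 8435 was high in XBP1 (499 CPM, next 308) and bird 8444 in SGK1 (414, next 265).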

How the results depend on the processing

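Of second trial against baseline, 2 genes passed in the main setting, 38 with DESeq2, 0 with the description wording as a term, 0 with foreign song birds only, 3 with local song birds only, and 1 to 6 with 1 library left out. Without second-trial bird 8439 and baseline bird 8448 together, an alternative chosen after seeing the data, 1 passed; without the 4 libraries of lowest mean correlation, also chosen after seeing the data, 2 passed. Without baseline bird 8450, 1733 genes had an unadjusted p under 0.05, and with no filter on low counts 2072, against 992. DESeq2 called 6 genes between second and first trials, 43 between songs and 5 between first trials and baseline. First trials against baseline gave 1 gene, and 0 with the 8 recaptured birds only or without first-trial bird 8439.

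Signs turned in 6 genes that had not passed. ALOX5 (log2 fold change −1.23) was 0.25 with DESeq2, 0.26 without baseline bird 8448, 0.28 with marker covariates and 0.30 in both alternatives added later. FLVCR1 (−3.20) was 0.30 with DESeq2, 0.32 without bird 8448, 0.43 with the covariates and 0.27 without 8439 and 8448. NCF4 (0.54) was −0.11 without second-trial bird 8426. NR3C1 (0.24) was −0.068 with the wording term and −0.11 with local song birds. With foreign song birds only, EBF1 (1.33) was −0.61 and TLR2 (0.39) was −0.043. With 1 library left out, ALOX5 ran from −1.34 to 0.26, FLVCR1 from −3.34 to 0.32 and NCF4 from −0.11 to 0.74. Apart from omitted libraries, the cause was not tested. Over all genes named and settings, 3011 values kept direction and side of the threshold, 31 gained and 18 lost a call, and 14 turned sign. Only ENTPD1 and MN1 held a call that could be lost, so all 18 lost calls were theirs. Of the medians of lists, 925 moved by less than a yardstick and 5 by more. That yardstick was the SD between libraries, within groups, of the mean log2 CPM of a list. It is wide: the T cell median's move from −0.47 to −0.998 without the library labelled 8439 counts among the 925.

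No paired analysis was possible for second trial against baseline because the groups share no bird. Between second and first trials, the fit with no replicate block gave 0 genes, as did the fit with the block, and 340 against 666 at an unadjusted p under 0.05. Counting depth limits genes under 1 CPM most.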

Other observations

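The 7 first-trial birds without a second-trial library enter no comparison of second trial with baseline. Their ENTPD1 level was 3.52, 4.57 and 7.48 CPM (lowest, median and highest), beside 1.69, 7.66 and 9.75 CPM in the first-trial libraries of the 8 recaptured birds. DENND4A stood at 31.5, 34.3 and 61.0 CPM in these 7 birds, and MN1 at 2.60, 4.11 and 10.1 CPM. RELL2 stood at 56.5, 107 and 654 CPM. LIPA stood at 10.1, 19.4 and 133 CPM and SOCS1 at 4.19, 8.64 and 36.1 CPM. The difference between recaptured and other first-trial birds was not tested.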
